A study of Mus musculus with 48 samples.

Results

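Cd1d1, the mouse gene of the lipid-presenting molecule CD1d, was followed across 6 diets in fat tissue. It is 1 of the 547 immune genes on the panel and was found by its symbol. It was selected on these same counts, as a gene that lay below chow in each fat-rich diet and lowest with starch/oleate, so its levels against chow and with starch/oleate are given as a description, without a test. The deposited record pairs the symbol with the RefSeq transcript NM_007639.3, which matched gene 12479 of the RefSeq table, a protein-coding gene. The next gene along the chromosome in that table, Cd1d2, is a close relative that the table lists as a transcribed pseudogene. Cd1d2 is not on the panel. Whether the Cd1d1 probe also reads Cd1d2 RNA was not tested.

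The tissue was epididymal white fat, the pad beside the testis, from 48 C3H/HeOuJ mice, an inbred strain, each giving 1 library. All animals ate freely for 6 months. The control group received a commercial chow (n = 8). In the other 5 groups, 42% of calories came from carbohydrate and 42% from fat. Of these, 4 groups ate custom diets that paired a carbohydrate, sucrose or starch, with a fatty acid, the saturated palmitate or the monounsaturated oleate. The oleate diets held 9 mice each (sucrose/oleate and starch/oleate), and the palmitate diets 8 (sucrose/palmitate) and 7 (starch/palmitate). The last group ate a commercial Western diet (n = 7), whose carbohydrate and fat sources the labels do not name. The labels do not give the animals' age, nor say which mice shared a cage, so the p-values measure the spread between these samples.

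CD1d is a surface molecule built like an MHC class I heavy chain. It pairs with beta-2 microglobulin and holds lipids in a deep groove, where natural killer T cells read them. CD1d is loaded in endosomes and lysosomes, where the protease cathepsin S and the MHC class II invariant chain act on its traffic. In fat tissue it is carried by adipocytes as well as by macrophages, dendritic cells and B cells, and the tissue is known for its resident natural killer T cells. RNA from whole tissue cannot tell fewer cells of a type from less RNA per cell.

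Total counts of the gene probes ran from 396391 to 888687 per library, with a median of 635028. The negative control probes averaged 7.51 counts and reached at most 21, far below any Cd1d1 count. Of the 12 listed adipocyte markers 3 were on the panel, Cfd, Pparg and Cd36, and all were detected in every library. Positive controls A and B, spiked into each assay, do not depend on the tissue. Their ratio ran from 3.17 to 3.39 on chow, 2.92 to 3.16 on starch/palmitate and 2.92 to 3.07 on sucrose/oleate, so for those diets assay and diet cannot be told apart. It ran from 3.27 to 3.43 on the Western diet, so comparisons of that diet with starch/palmitate and sucrose/oleate carry the same limit. On sucrose/palmitate it was 3.31 to 3.56 in replicates 1 to 4 and 2.99 to 3.15 in replicates 5 to 8. The latter lay below all chow and Western diet libraries, so comparisons with sucrose/palmitate carry the limit in part. Cd1d1 ran from 4309 to 6794 in replicates 1 to 4 and from 5194 to 9359 in replicates 5 to 8. With that ratio in the fit, the log2 distance of Cd1d1 from chow was -0.93 on starch/palmitate and -1.06 on sucrose/oleate, against -0.91 and -1.04 without it. Since the ratio does not overlap between chow and these diets, these values cannot show whether the assay had a part. Between 1 (sucrose/palmitate) and 9 (starch/oleate) of the 14 reference genes used for scaling themselves differed from chow by edgeR's test. An epithelial marker list was high in 5 libraries: starch/palmitate replicates 1 and 3, starch/oleate replicates 2 and 6, and Western diet replicate 2. Of the 5 epithelial genes tested, 1 rose with sucrose/palmitate, 3 with starch/palmitate, 2 with starch/oleate and 2 with the Western diet. Over all genes 14.9%, 20.6%, 48.3% and 32.8% rose in these diets, so only the starch/palmitate count stood far above that share. The summed count of the epithelial genes ran from 1856 to 3554 on chow and reached 175039 in Western diet replicate 2. Without these 5 libraries Cd1d1 stood at -2.52 from chow on starch/oleate, -0.80 on starch/palmitate and -1.62 on the Western diet. Western diet replicate 2 also had the lowest summed adipocyte markers of all libraries, 23954.

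Cd1d1 was highest on chow, intermediate on sucrose/palmitate, starch/palmitate and sucrose/oleate, lower on the Western diet and lowest on starch/oleate. Values are counts scaled to the panel's 14 reference genes. On chow the 8 libraries ran from 5643 to 13758 with a median of 11433, and the mean was 10445.5 ± 2833 (SD, n = 8). The chow libraries held 6 values of 10455 or more, while replicates 1 and 7 were lower, at 6656 and 5643. On sucrose/palmitate the range was 4309 to 9359 with a median of 6157, and the mean was 6299 ± 1543 (SD, n = 8). On starch/palmitate it was 3067 to 7598 with a median of 5769, and the mean was 5576 ± 1618 (SD, n = 7). The ranges of both palmitate diets reached into that of chow from below. On sucrose/oleate the range was 3242 to 9144 with a median of 5007, and the mean was 5087 ± 1713 (SD, n = 9). A single sucrose/oleate library, replicate 6, held the 9144, and the next highest was at 5818. On the Western diet the range was 1926 to 4550 with a median of 3061, and the mean was 3221 ± 1017 (SD, n = 7). On starch/oleate it was 1051 to 2848 with a median of 2051, and the mean was 1975 ± 559 (SD, n = 9). The spread within a diet was alike in relative terms, with a coefficient of variation of 24.5% to 33.7%.

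**Figure D1:**
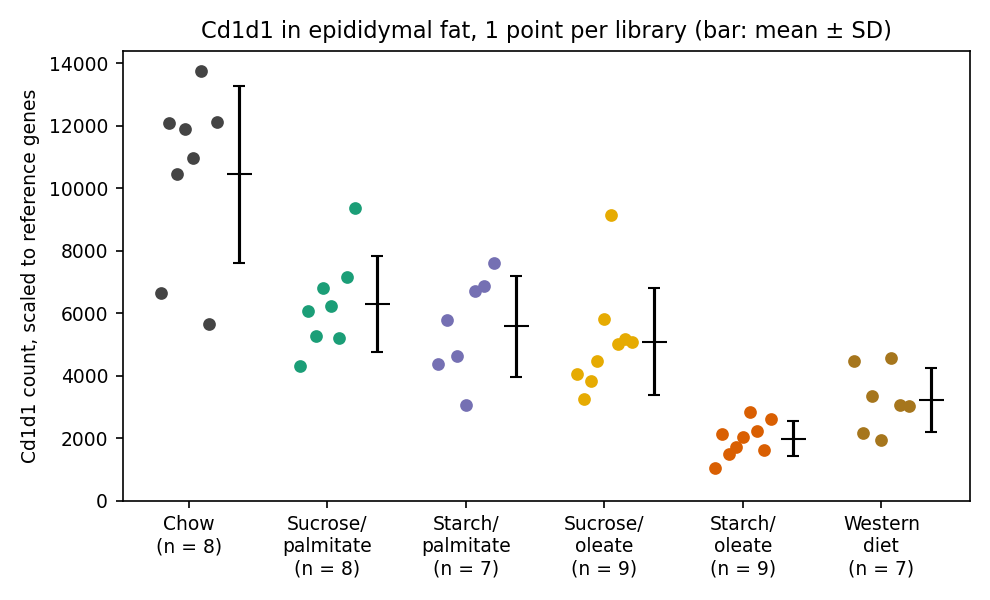
Cd1d1 counts scaled to the reference genes (vertical axis, linear from 0) in each of the 48 libraries, by diet, with the mean and SD beside the points. All starch/oleate libraries lie at or below 2848 and all Western diet libraries at or below 4550, under the lowest chow library at 5643.

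The distance from chow grew in the same order. On the log2 scale, and with its SE from edgeR's fit of all 48 libraries, Cd1d1 stood at -0.73 ± 0.21 from chow on sucrose/palmitate, a level 1.66-fold lower. It stood at -0.91 ± 0.22 on starch/palmitate, at -1.04 ± 0.20 on sucrose/oleate, at -1.70 ± 0.23 on the Western diet and at -2.40 ± 0.21 on starch/oleate. The last of these is a level 5.29-fold lower, and that on the Western diet 3.24-fold lower. The median of all 491 tested genes lay on the other side of chow, at 0.19 to 0.34 in the 5 diets. Ordered from the lowest difference, Cd1d1 held rank 5 with sucrose/palmitate, 6 with starch/palmitate, 11 with sucrose/oleate, 2 with starch/oleate and 4 with the Western diet. These contrasts chose the gene, so nothing is read from the ranks.

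The groups separated completely from chow in 2 of the 5 diets. All 9 starch/oleate and all 7 Western diet libraries lay below the lowest chow library, a pattern that 4.68% and 2.85% of the tested genes shared. The same held for unscaled counts, which ran from 1058 to 2968 on starch/oleate and from 5855 to 13494 on chow. On sucrose/oleate 7 of 9 libraries lay below the lowest chow library, on sucrose/palmitate 3 of 8 and on starch/palmitate 3 of 7. All libraries of the 5 diets lay below the chow mean. For comparison, 2.24% of genes fell against chow with sucrose/palmitate by edgeR's quasi-likelihood test (adjusted p under 0.05 after Benjamini-Hochberg), 4.68% with starch/palmitate, 7.74% with sucrose/oleate, 12% with starch/oleate and 7.94% with the Western diet. Scaling with TMM factors, which centres the bulk of the genes, raised the fallers with starch/oleate from 59 to 114 genes and lowered the risers from 237 to 168. Cd1d1 itself stayed at rank 2 there, at -2.69 ± 0.24.

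Within the 4 custom diets, the step from one carbohydrate or fat to the other was larger when it ended at starch/oleate. From sucrose to starch, Cd1d1 differed by -0.18 ± 0.22 where the fat was palmitate and by -1.36 ± 0.20 where it was oleate. From palmitate to oleate, it differed by -0.31 ± 0.20 with sucrose and by -1.50 ± 0.21 with starch. The steps that end at starch/oleate helped to choose the gene, so the difference between the steps was not tested. The ratio of positive controls A and B ran from 3.11 to 3.28 on starch/oleate and from 2.92 to 3.07 on sucrose/oleate, without overlap. For the step from sucrose to starch with oleate, assay and diet thus cannot be told apart. Against the Western diet, starch/oleate stood at -0.71 ± 0.21, with 4 of 9 libraries below the lowest Western diet library and the rest inside its range.

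The order among the other 4 fat-rich diets was not used to choose the gene and could be tested. Cd1d1 differed among sucrose/palmitate, starch/palmitate, sucrose/oleate and the Western diet (edgeR's quasi-likelihood F = 6.77, adjusted p = 0.0116), as did 13.4% of the tested genes. It fell with the Western diet against sucrose/palmitate by 0.97 ± 0.22 on the log2 scale, a 1.96-fold lower level (edgeR, adjusted p = 0.00601). In that comparison 7 of 7 Western diet libraries lay below the sucrose/palmitate mean and 5 below its lowest library, and 6.11% of genes differed. Sucrose/palmitate replicates 5 to 8 lay below all Western diet libraries in the ratio of positive controls A and B. With that ratio in the fit the difference was -0.96 (edgeR, adjusted p = 0.0161). Cd1d1 also fell with the Western diet against starch/palmitate by 0.79 ± 0.23, a 1.73-fold lower level (edgeR, adjusted p = 0.0224), where 8.76% of genes differed. Here too 7 of 7 Western diet libraries lay below the mean of the other diet, and 4 below its lowest library. This call was lost without starch/palmitate replicate 7 (-0.70, adjusted p = 0.0553) or Western diet replicate 4 (-0.70, adjusted p = 0.0649), with only the 2 groups in the fit (adjusted p = 0.128) and with the ratio of the positive controls in the fit (adjusted p = 0.219). All of these p-values are edgeR's.

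Against sucrose/oleate, the Western diet level was lower by a log2 value of -0.66 ± 0.21, which did not pass (edgeR, adjusted p = 0.0696, 95% interval of the difference -1.09 to -0.23), where 3.46% of genes passed. All 7 Western diet libraries lay below the sucrose/oleate mean. An exact two-sided permutation test of this gene alone gave p = 0.00848 for that pair, or 0.0233 after Benjamini-Hochberg over the 6 pairs. With the ratio of the positive controls in the fit, the adjusted p of that pair was 0.473 (edgeR). The 3 custom diets did not pass the test against each other. Sucrose/oleate against sucrose/palmitate gave -0.31 ± 0.20 (adjusted p = 0.347, interval -0.72 to 0.10), and starch/palmitate against sucrose/palmitate -0.18 ± 0.22 (adjusted p = 0.882, interval -0.61 to 0.26). Sucrose/oleate against starch/palmitate gave -0.13 ± 0.21 (adjusted p = 0.763, interval -0.56 to 0.29). In these 3 pairs 3.67%, 2.04% and 3.67% of genes passed. Each interval holds 0 as well as falls close to that of the Western diet against sucrose/oleate. With scaling to the positive controls, the F test (adjusted p = 0.0823) and the Western diet against both palmitate diets (adjusted p = 0.0654 and 0.0688) no longer passed.

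**Figure D2:**
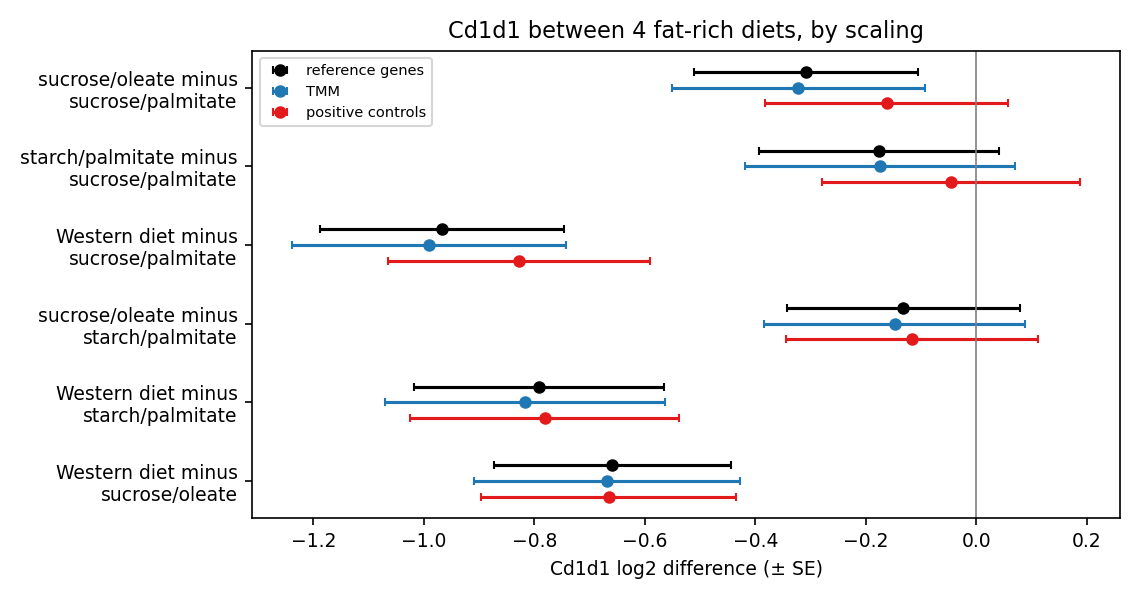
Log2 difference of Cd1d1 (horizontal axis, with SE) for the 6 pairs among sucrose/palmitate, starch/palmitate, sucrose/oleate and the Western diet, under scaling to reference genes, TMM factors or positive controls. The 3 pairs with the Western diet lie between -0.99 and -0.66 under each scaling, and the other 3 pairs between -0.32 and -0.05.

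Pparg, which encodes the nuclear receptor that drives adipocyte differentiation, was used as a second yardstick, since it lay below chow in the same diets. This ratio was added after the levels had been seen, and its size carries no meaning between genes, only between libraries. The number of Cd1d1 counts per Pparg count was 10.5 ± 2.41 (SD, n = 8) on chow, with a range of 6.51 to 13.7. It was 8.99 ± 1.49 (n = 8) on sucrose/palmitate, 8.53 ± 1.61 (n = 7) on starch/palmitate and 8.34 ± 1.97 (n = 9) on sucrose/oleate. It was 5.41 ± 0.867 (n = 7) on the Western diet and 5.34 ± 1.06 (n = 9) on starch/oleate. On this scale the log2 difference of starch/oleate from the Western diet was -0.027, where the counts scaled to the reference genes had them apart by -0.71. The distance of starch/oleate from chow was -0.97 per Pparg count against -2.40 in scaled counts, and that of the Western diet -0.94 against -1.70. In sucrose/palmitate, starch/palmitate and sucrose/oleate the distance from chow was -0.21, -0.29 and -0.34.

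The ratio was lower with the Western diet than with the other 3 testable diets. Against sucrose/palmitate it differed by -0.73 on the log2 scale (exact two-sided permutation test, p = 0.000155, the smallest that 7 against 8 libraries can give, adjusted over the 6 pairs 0.000932), and no library overlapped. Against starch/palmitate the difference was -0.65 (exact permutation p = 0.000583, the smallest that 7 against 7 libraries can give, adjusted 0.00175), again without overlap. Against sucrose/oleate it was -0.61 (exact permutation p = 0.00122, adjusted 0.00245), with 7 of 7 Western diet libraries below the sucrose/oleate mean. Sucrose/oleate replicate 2, at 4.93, was the single library of that diet inside the Western diet range of 3.62 to 6.33. The other 3 pairs differed by -0.13 to -0.05 (exact permutation p from 0.411 to 0.778). The ratio of positive controls A and B was 3.27 to 3.43 on the Western diet, above all starch/palmitate and sucrose/oleate libraries. Against those diets assay and diet cannot be told apart. It also lay above sucrose/palmitate replicates 5 to 8, so the comparison with sucrose/palmitate carries this limit in part. Cd1d1 per Pparg count was not tested with the positive controls in the fit.

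**Figure D3:**
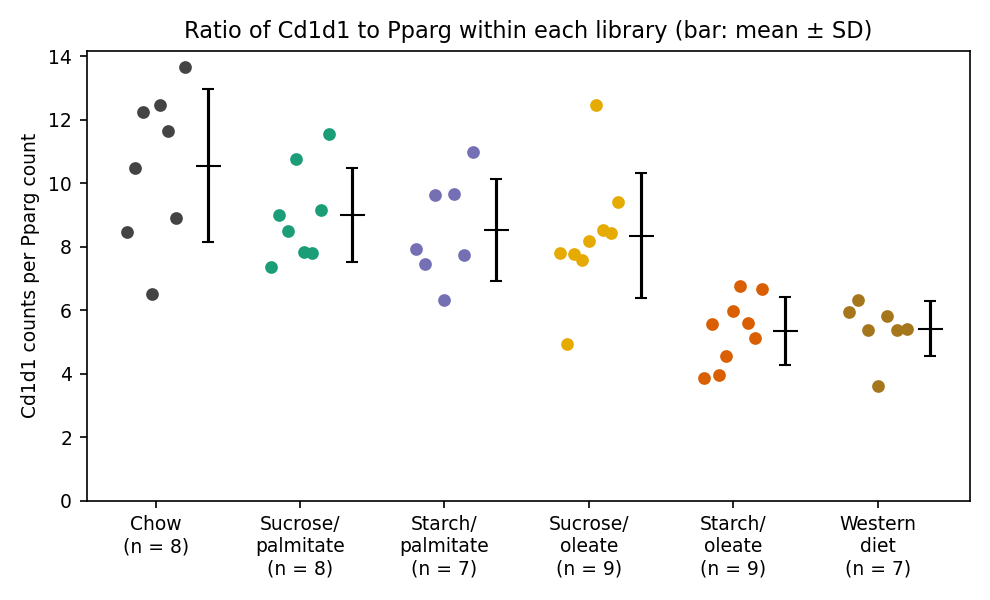
Cd1d1 counts per Pparg count (vertical axis, linear from 0) in each library, by diet, with the mean and SD beside the points. The Western diet (3.62 to 6.33) and starch/oleate (3.88 to 6.76) occupy the same band, below the means of the other 4 diets.

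Within diets, Cd1d1 and Pparg tended to run together over libraries. The relation was computed on log2 scaled counts in each diet, which sets aside the differences between diets. In all, 12 relations were tested by exact permutation, two-sided, with Benjamini-Hochberg adjustment for r and rho separately. A p-value printed beside both belongs to r. Pearson's r with Pparg was above 0 in 6 of 6 diets. It passed in sucrose/palmitate (r = 0.78, Spearman's rho = 0.76, exact p = 0.0186, adjusted 0.0446), the Western diet (r = 0.83, rho = 0.96, exact p = 0.0159, adjusted 0.0446) and starch/oleate (r = 0.84, rho = 0.90, exact p = 0.0057, adjusted 0.0342). It did not pass on chow (r = 0.70, rho = 0.83, exact p = 0.0572, adjusted 0.0981), starch/palmitate (r = 0.81, rho = 0.64, exact p = 0.0276, adjusted 0.0552) or sucrose/oleate (r = 0.59, rho = 0.58, exact p = 0.0887, adjusted 0.118). Spearman's rho passed in the Western diet and starch/oleate (exact permutation, adjusted p = 0.0167 in each). It did not pass in sucrose/palmitate (0.110), chow (0.0615), starch/palmitate (0.167) or sucrose/oleate (0.162). Without the 2 libraries farthest from the median of Pparg, r stayed between 0.65 and 0.88 in chow, both palmitate diets and the Western diet, and was 0.52 in starch/oleate. In sucrose/oleate it dropped to -0.08, so the relation there rests on those libraries. Both genes share a library's scale factor and RNA. With TMM scaling, chow (r = 0.77, exact permutation, adjusted p = 0.0298), starch/palmitate (r = 0.87, adjusted 0.0231) and sucrose/oleate (r = 0.80, adjusted 0.0231) also passed. With scaling to the positive controls, starch/oleate no longer passed (r = 0.66, exact permutation, adjusted p = 0.163).

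Emr1, which encodes the macrophage surface protein F4/80, ran the other way in 5 of 6 diets. Pearson's r of Cd1d1 with Emr1 passed in sucrose/oleate (r = -0.90, rho = -0.60, exact permutation p = 0.00191, adjusted 0.0229) and sucrose/palmitate (r = -0.80, rho = -0.71, exact permutation p = 0.0172, adjusted 0.0446). Spearman's rho did not pass in either (exact permutation, adjusted p = 0.162 and 0.138), nor in any other diet (0.162 to 0.906). Pearson's r was -0.53 on chow, -0.67 on starch/palmitate and -0.63 on starch/oleate (rho -0.60, -0.50 and -0.62), with exact permutation p of 0.188, 0.1004 and 0.0694, adjusted 0.205, 0.1205 and 0.104. On the Western diet r was 0.22 (rho = 0.07, exact permutation p = 0.664, adjusted 0.664), and without the 2 libraries farthest from the Emr1 median it was -0.69. Replicate 2 of that diet, one of the libraries high in epithelial markers, had the lowest Emr1 of its group, 1180 against 3167 to 6901 in the rest. Without the 2 farthest libraries r was -0.57 in sucrose/oleate and -0.42 in sucrose/palmitate. With scaling to the positive controls neither passed (r = -0.59 and -0.47, exact permutation, adjusted p = 0.206 and 0.322). On sucrose/palmitate the permutation did not keep apart replicates 1 to 4 and 5 to 8, which differ in the ratio of the positive controls.

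**Figure D4:**
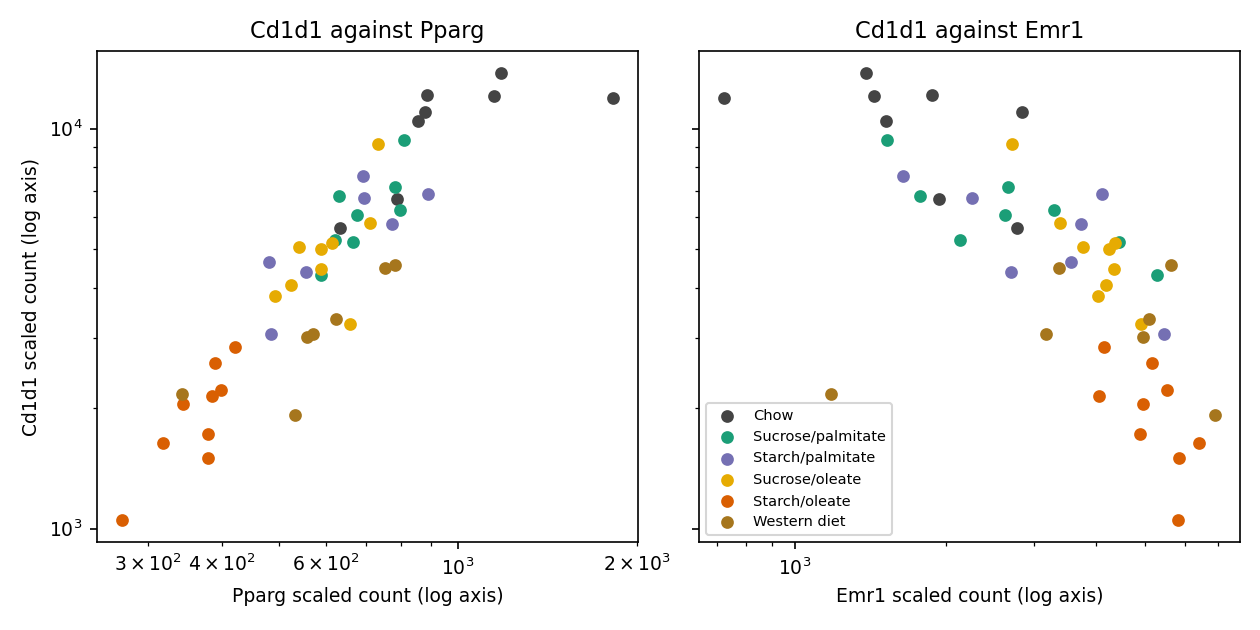
Cd1d1 scaled count (vertical, log axis) against the scaled count of Pparg (left) and Emr1 (right; both log axes), 1 point per library, coloured by diet. Within each diet r of Cd1d1 with Pparg is above 0, from 0.59 to 0.84, while the Western diet library with an Emr1 count of 1180 stands away from the falling band in the right panel.

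The genes whose deviations from the diet mean were most like those of Cd1d1 over all 48 libraries were Bcap31 (r = 0.86), Itga6 (0.75), Pparg (0.72), Cd164 (0.68) and Cdh5 (0.66), out of 490 other genes with a median r of -0.16. These correlations are descriptions, and all points share the library's scaling. Bcap31, which encodes a chaperone of the endoplasmic reticulum that escorts membrane proteins, had r above 0 in 6 of 6 diets, from 0.59 in sucrose/palmitate to 0.98 on the Western diet. Itga6, the alpha-6 integrin chain, ran from 0.64 to 0.88 over the diets. Cd164 encodes a sialomucin, and Cdh5 the cadherin of endothelial junctions. At the other end stood Bax, a pore-forming promoter of apoptosis (r = -0.67), Litaf, a regulator of endosomal sorting (-0.66), and Ctnnb1, the gene of beta-catenin (-0.63), each with r below 0 in every diet. Of the other adipocyte genes Cfd had r = 0.65 and Cd36 r = 0.20.

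Across the 6 diet means on the log2 scale, Pearson's r with Cd1d1 was highest for Fas (r = 0.990), Cfd (0.989), Itga6 (0.978), Cd164 (0.974) and Pparg (0.966), among 147 genes whose means spanned at least 1 on the log2 scale. Fas, the gene of a death receptor, ran from 233 ± 76.7 on chow (SD, n = 8) to 142 ± 32.7 on the Western diet (n = 7) and 110 ± 25 on starch/oleate (n = 9). Itga6 ran from 1968 ± 327 on chow to 1213 ± 172 on the Western diet and 822 ± 236 on starch/oleate, whose 9 libraries all lay below the lowest chow library. Cd164 ran from 5085 ± 936 to 3304 ± 549 and 2504 ± 425 in the same groups, again with all 9 starch/oleate libraries below chow. These likenesses rest on 6 points and are given without a test.

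Apart from Cd1d1, 5 genes fell against chow in all 5 fat-rich diets by edgeR's test: Cfd, Pparg, Bcap31, C9 and Irak2. With Cd1d1 they make up 1.22% of the tested genes. The 5 comparisons share the chow libraries. Cfd, which encodes the complement protease adipsin that adipocytes secrete, ran on chow from 18982 to 222161 with a median of 40103, and on starch/oleate from 1089 to 7957 with a median of 3518. All 9 starch/oleate and all 7 Western diet libraries lay below the lowest chow value. Its log2 difference was -1.25 ± 0.45 with sucrose/palmitate, -1.92 ± 0.48 with starch/palmitate, -2.37 ± 0.44 with sucrose/oleate, -3.38 ± 0.51 with the Western diet and -4.11 ± 0.48 with starch/oleate (edgeR, adjusted p = 0.0476, 0.00298, 6.46e-05, 2.31e-06 and 2.80e-09). The call with sucrose/palmitate was lost without the filter on low counts (edgeR, adjusted p = 0.0515), with only those groups in the fit (0.123), with the replicate number as a block (0.103) and with scaling to the positive controls (0.0824).

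Pparg fell by 0.56 ± 0.15 on the log2 scale with sucrose/palmitate, by 0.65 ± 0.16 with starch/palmitate, by 0.76 ± 0.15 with sucrose/oleate, by 0.79 ± 0.16 with the Western diet and by 1.49 ± 0.15 with starch/oleate (edgeR, adjusted p from 9.74e-11 to 0.0173). Its scaled count was 1025 ± 371 on chow (SD, n = 8), 594 ± 147 on the Western diet (n = 7) and 365 ± 46.2 on starch/oleate (n = 9). Between the Western diet and sucrose/oleate, the mean Cd1d1 counts were 3221 and 5087, and those of Pparg 594 and 605 ± 83.3. Bcap31 fell by 0.34 ± 0.08, 0.41 ± 0.08, 0.51 ± 0.08, 0.78 ± 0.08 and 0.98 ± 0.08 in the same order of diets (edgeR, adjusted p from 1.03e-13 to 0.00595), and thus kept the order of Cd1d1 at a smaller size. All 9 starch/oleate and all 7 Western diet libraries lay below the lowest chow value of Bcap31, 4858.

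C9, a late complement component, and Irak2, a kinase of interleukin-1 and Toll-like receptor signalling, kept another order. C9 had a mean of 38.1 ± 36.7 on chow and of 5.43 to 12.8 on the other diets, where it lay near the counts of the negative controls. With the ratio of the positive controls in the fit, Cfd, Pparg, Bcap31, C9 and Irak2 missed the threshold in starch/palmitate (edgeR, adjusted p from 0.0511 to 0.161), as did Cfd in sucrose/palmitate (0.0531) and C9 and Irak2 in sucrose/oleate (0.0664 and 0.383). Irak2 fell by 0.23 ± 0.09 with sucrose/oleate and by 0.52 ± 0.09 with the Western diet (edgeR, adjusted p = 0.0334 and 3.44e-05), the ends of its range. With scaling to the positive controls, Bcap31 and Irak2 no longer passed in sucrose/palmitate, starch/palmitate and sucrose/oleate, nor Irak2 with the Western diet, nor Pparg in both palmitate diets (edgeR, adjusted p from 0.0626 to 0.908).

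**Figure D5:**
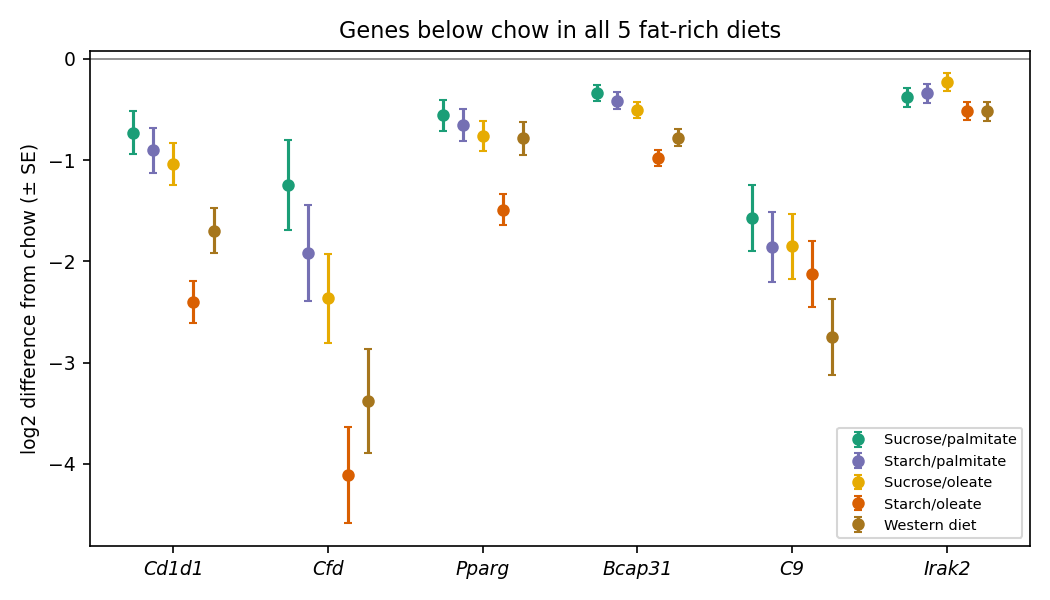
Log2 difference from chow (vertical axis, with SE from edgeR) of the 6 genes that lay below chow in all 5 fat-rich diets, by diet. Cd1d1, Cfd, Pparg and Bcap31 are lowest with starch/oleate, with Cfd reaching -4.11 and Bcap31 -0.98, while C9 is lowest with the Western diet at -2.75.

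Of the 11 listed genes of CD1d assembly and traffic, 3 were on the panel: B2m, Ctss and Cd74. B2m, the light chain that CD1d shares with MHC class I, fell with starch/oleate by 0.33 ± 0.13 (edgeR, adjusted p = 0.0203), from 75272 ± 9130 on chow to 59696 ± 11881. The 9 starch/oleate libraries overlapped chow, with 6 below its lowest value. B2m did not pass in the other diets (-0.31 ± 0.13 with the Western diet, edgeR adjusted p = 0.0595, and -0.12 to 0.03 in the rest), and with scaling to the positive controls the starch/oleate call was lost (-0.19, adjusted p = 0.306). The Western diet value passed with TMM scaling (-0.46, edgeR adjusted p = 0.0100), with DESeq2 (-0.50, adjusted p = 0.00088) and under 3 other alternatives (edgeR, adjusted p from 0.0159 to 0.0497), and the sucrose/oleate value passed with DESeq2 (-0.32, adjusted p = 0.027). Cd1d1 counts per 1 B2m count were 0.137 ± 0.0271 on chow, 0.0907 ± 0.0179 on sucrose/palmitate and 0.0767 ± 0.0281 on starch/palmitate. They were 0.0729 ± 0.0186 on sucrose/oleate, 0.0527 ± 0.0143 on the Western diet and 0.0331 ± 0.00788 on starch/oleate. Set against its own light chain, Cd1d1 thus kept the same order of diet means. By medians the palmitate diets changed places, with 0.0899 on starch/palmitate and 0.0831 on sucrose/palmitate. Starch/palmitate replicate 3, with a B2m count of 127798, had the lowest ratio of its diet, 0.036.

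Ctss, the gene of cathepsin S, rose in both oleate diets. Its scaled count was 8684 ± 4187 on chow (SD, n = 8), 16469 ± 3127 on sucrose/oleate (n = 9) and 24158 ± 3919 on starch/oleate (n = 9). It rose by 0.92 ± 0.29 with sucrose/oleate and by 1.48 ± 0.29 with starch/oleate (edgeR, adjusted p = 0.00999 and 3.59e-05), and all 9 starch/oleate libraries lay above the highest chow library, as they did for 19.6% of the tested genes. The sucrose/oleate call was lost with the ratio of the positive controls in the fit (edgeR, adjusted p = 0.384). With the Western diet it stood at 0.66 ± 0.30 and did not pass (edgeR, adjusted p = 0.0762), but passed without the libraries high in epithelial markers (0.83, edgeR adjusted p = 0.0177). Cd74, the invariant chain, did not pass in any diet, with differences from 0.05 ± 0.20 on starch/oleate to 0.53 ± 0.22 on starch/palmitate (edgeR, adjusted p from 0.0635 to 0.853). With scaling to the positive controls it passed on starch/palmitate (0.75, edgeR adjusted p = 0.0285).

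The number of genes linked to natural killer T cells that rose varied with the diet and the scaling. It lay in no diet far above the share of all genes, and few of these genes belong to these cells alone. Zbtb16, their defining transcription factor, is not on the panel, so their number could not be followed. Of 21 listed genes 15 were tested. With starch/oleate 9 rose and 1 fell (median difference 0.50, against 0.34 for all genes, of which 48.3% rose). With starch/palmitate 5 rose (20.6% of all genes), with sucrose/oleate 5 rose and 1 fell (28.9%), with the Western diet 3 rose (32.8%) and with sucrose/palmitate 1 rose (14.9%). The median differences in these 4 diets were 0.50, 0.25, 0.31 and 0.36, against 0.24, 0.19, 0.25 and 0.20 for all genes. The starch/oleate count dropped to 3 that rose and 2 that fell with TMM scaling and with DESeq2. Over all genes 168 rose and 114 fell there with TMM scaling, and 155 rose and 135 fell with DESeq2. The calls in sucrose/palmitate, starch/palmitate and sucrose/oleate were lost with the ratio of the positive controls in the fit, where 1 of the 491 tested genes rose with starch/palmitate and 21 with sucrose/oleate. Cxcr6, a chemokine receptor of natural killer T and other lymphocytes, averaged 45 ± 13.2 on chow and 138 ± 40.3 on starch/oleate, a log2 rise of 1.61 ± 0.30 (edgeR, adjusted p = 1.67e-05), with all 9 libraries above chow. It rose by 1.07 to 1.27 with the other custom diets, each call lost with the ratio of the positive controls in the fit (edgeR, adjusted p from 0.0594 to 0.4997), and stood at 0.74 ± 0.32 with the Western diet (edgeR, adjusted p = 0.059). The Western diet value passed with that ratio in the fit (0.0282), with scaling to the positive controls (0.0431), with only the groups compared (0.0156) and without the libraries high in epithelial markers (0.0372), all by edgeR's adjusted p. Il2rb, a shared chain of the interleukin-2 and interleukin-15 receptors, rose with starch/oleate by 0.74 ± 0.18 and Il15 by 0.61 ± 0.17, while Il15ra fell by 0.53 ± 0.14 (edgeR, adjusted p = 0.00065, 0.0023 and 0.0012). The Il15 call was lost with TMM scaling (edgeR, adjusted p = 0.0644) and with DESeq2 (0.146). The Il15ra call was lost with scaling to the positive controls (-0.37, edgeR, adjusted p = 0.0733). Gata3, a transcription factor of lymphocytes and epithelia, reached 2071 in starch/oleate replicate 6, one of the libraries high in epithelial markers, and its rise there was lost without those libraries (edgeR, adjusted p = 0.0602).

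Markers of the cells that can carry CD1d moved apart from each other. Of the 3 adipocyte genes, all fell in sucrose/palmitate, starch/palmitate and the Western diet, and 2 in sucrose/oleate and starch/oleate, where Cd36 did not pass. Over all genes 2.24%, 4.68%, 7.94%, 7.74% and 12% fell in these diets, in the same order. The median difference of the 3 adipocyte genes was -1.49 with starch/oleate and -0.79 with the Western diet, against 0.34 and 0.25 for all genes. Cd36, a fatty acid transporter, stood at -0.27 ± 0.14 with starch/oleate (edgeR, adjusted p = 0.0984), the diet with the lowest Cd1d1, and fell by 0.63 ± 0.15 with the Western diet (edgeR, adjusted p = 0.000993). The starch/oleate value passed with TMM scaling (-0.55, edgeR adjusted p = 0.00058) and DESeq2 (-0.62, adjusted p = 4.4e-06), and the sucrose/oleate value with DESeq2 (-0.37, adjusted p = 0.0123). Its call in both palmitate diets and the Western diet was lost with scaling to the positive controls (edgeR, adjusted p from 0.0793 to 0.288). The summed adipocyte markers, dominated by Cfd and Cd36, ran from 83966 to 303893 on chow and from 53011 to 73992 on starch/oleate. The part of these shifts in the Cd1d1 levels was not tested.

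Macrophage markers rose in the largest number with starch/oleate. Of 15 tested, 4 rose with sucrose/palmitate, 9 with starch/palmitate, 11 with sucrose/oleate, 14 with starch/oleate and 11 with the Western diet, while 14.9%, 20.6%, 28.9%, 48.3% and 32.8% of all genes rose in these diets. The count was 13 or 14 with starch/oleate and 10 to 13 with the Western diet under the alternatives that change the fit or leave out the epithelial libraries. The sucrose/palmitate calls were lost with scaling to the positive controls and with only the groups compared. With the ratio of the positive controls in the fit, all 9 calls in starch/palmitate and all but 1 in sucrose/oleate were lost. Their median difference was 1.31 with starch/oleate and 0.57 with sucrose/palmitate, against 0.34 and 0.20 for all genes. Emr1 averaged 1814 ± 718 on chow and 5199 ± 788 on starch/oleate, a log2 rise of 1.52 ± 0.26 (edgeR, adjusted p = 3.49e-06), with all 9 libraries above chow. With sucrose/palmitate its rise of 0.71 ± 0.26 passed narrowly (edgeR, adjusted p = 0.049) and was lost with TMM scaling (0.079). With the ratio of the positive controls in the fit the Emr1 rise was lost in sucrose/palmitate, starch/palmitate and sucrose/oleate (edgeR, adjusted p = 0.118, 0.323 and 0.165). Msr1, a scavenger receptor, rose by 1.73 ± 0.27 and Itgax, the CD11c integrin chain, by 1.92 ± 0.33 with starch/oleate (edgeR, adjusted p = 8.7e-07 and 4.6e-06). Cd163, the haemoglobin scavenger receptor of resident macrophages, was the 1 marker that fell in the 4 diets other than sucrose/palmitate, by 1.33 ± 0.25 with the Western diet (edgeR, adjusted p = 7.7e-05). With the ratio of the positive controls in the fit, no macrophage marker fell in starch/palmitate or sucrose/oleate. With TMM scaling and with DESeq2, 1 macrophage marker fell in sucrose/palmitate as well.

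B cell markers rose widely with starch/oleate and the Western diet, in 8 and 7 of the 8 tested (48.3% and 32.8% of all genes). With sucrose/palmitate 7 rose (14.9% of all genes), a count that was 2 with the ratio of the positive controls in the fit and 4 with the replicate number as a block, and whose calls were lost with scaling to the positive controls and with only the groups compared. With starch/palmitate 2 rose and with sucrose/oleate 3, near the 20.6% and 28.9% of all genes, and these calls were lost with the ratio of the positive controls in the fit. Their median difference was 1.48 with starch/oleate and 1.14 with the Western diet. Blnk, an adaptor of the B cell receptor, rose by 1.53 ± 0.22 and Cd22, an inhibitory B cell receptor, by 1.73 ± 0.26 with starch/oleate (edgeR, adjusted p = 2.3e-07 and 5.7e-07). Of 8 dendritic cell genes 3, 4, 4, 5 and 3 rose with sucrose/palmitate, starch/palmitate, sucrose/oleate, starch/oleate and the Western diet. Among them Irf8, a transcription factor, rose by 1.07 ± 0.18 with starch/oleate (edgeR, adjusted p = 4.5e-06). Batf3 and Xcr1 of the same list did not pass with starch/oleate (0.22 ± 0.19 and 0.13 ± 0.19, edgeR, adjusted p = 0.334 and 0.555). Cd209g, a C-type lectin, fell in the 4 diets other than sucrose/palmitate, by 1.07 ± 0.22 with starch/oleate (edgeR, adjusted p = 6.1e-05). Its fall in starch/palmitate was lost with scaling to the positive controls and with their ratio in the fit. Of 12 T cell genes 1, 6, 5, 8 and 4 rose, in the same order of diets. Beside these counts, 14.9%, 20.6%, 28.9%, 48.3% and 32.8% of all genes rose, so both lists lay near that share with the Western diet. The dendritic cell calls in sucrose/palmitate were lost with scaling to the positive controls and with only the groups compared, and the latter gave 1 call in starch/palmitate. With the ratio of the positive controls in the fit, the T cell calls in starch/palmitate and sucrose/oleate were lost, as were the dendritic cell calls in starch/palmitate and all but 1 in sucrose/oleate.

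Some endothelial markers fell in both oleate diets and the Western diet. Of 4 tested, 3 fell with starch/oleate, and 2 fell and 1 rose with sucrose/oleate and likewise with the Western diet. Over all genes 12%, 7.74% and 7.94% fell in these 3 diets. With sucrose/oleate and the Western diet 28.9% and 32.8% of all genes rose, so the 1 riser in each lay near that share. Cdh5, named above for its likeness to Cd1d1 within diets, averaged 818 ± 158 on chow and 321 ± 65.3 on starch/oleate, a fall of 1.35 ± 0.16 (edgeR, adjusted p = 2.80e-09), with all 9 libraries below chow. Cd34, which is also carried by progenitor cells, rose by 0.58 ± 0.12 with the Western diet (edgeR, adjusted p = 0.00024). The Cdh5 call in sucrose/oleate and the Western diet was lost with scaling to the positive controls (edgeR, adjusted p = 0.236 and 0.112), as were the other falls of the list there, and those in sucrose/oleate also with the ratio of the positive controls in the fit. With DESeq2 Cdh5 also passed in starch/palmitate (-0.49, adjusted p = 0.0369), and Cd34 passed below chow with starch/oleate with TMM scaling (-0.27, edgeR adjusted p = 0.0299) and DESeq2 (-0.33, adjusted p = 0.00775).

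Calls among the genes of classical peptide presentation were few and depended on the scaling. Of 6 tested MHC class I genes, 2 rose with starch/palmitate and 1 with starch/oleate. Of 9 MHC class II genes, 2 rose with sucrose/palmitate, 2 with starch/palmitate, 1 with starch/oleate and 2 with the Western diet. Over all genes 14.9%, 20.6%, 48.3% and 32.8% rose in these 4 diets. With TMM scaling and with DESeq2 the class I call with starch/oleate was lost and 3 class I genes fell. With scaling to the positive controls 7 class II genes rose with starch/palmitate. The median difference with starch/oleate was 0.04 for class I and 0.05 for class II, against 0.34 for all genes and -2.40 for Cd1d1. With the Western diet these values were 0.12, 0.29, 0.25 and -1.70. The difference between Cd1d1 and these lists was not tested.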

How the data were processed

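The data are NanoString nCounter counts of barcoded probes from 48 libraries, deposited by the authors as 1 table of counts, with 547 genes, 14 reference genes, 6 positive and 8 negative control probes. The tool that made the counts is not given in the sources used here. RNA was extracted with a lipid tissue kit, per the labels' protocols. The deposited values were whole numbers of at least 1, and the 6 diet groups were read from the sample titles and characteristics.

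Each library was divided by the geometric mean of its reference gene counts, set to a geometric mean of 1 over libraries. edgeR 4.0.16 (quasi-likelihood, R 4.3.3) was fitted to all 48 libraries with diet means, and p-values were adjusted by Benjamini-Hochberg over the 491 genes whose counts averaged at least 10. Cd1d1 passed this filter. "Rose" and "fell" stand for an adjusted p under 0.05. The members and lists were chosen with earlier results of these data known. Within-diet relations and the ratio to Pparg used log2 values, with a pseudocount of 1 for scaled counts, and exact permutation tests. The text names Cd1d1, the 5 most and 3 least alike genes within diets, the 5 most alike over diet means, the genes below chow in all 5 diets, the measured genes of CD1d presentation and up to 4 called members of each other list.

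Alternatives were TMM factors, positive control scaling, no filter or a mean count of at least 30, DESeq2 1.42.0, only the groups compared, the replicate number as a block, the positive control ratio as a covariate, leaving out 5 libraries high in epithelial markers, and leaving out each library. Ratios to Pparg and B2m were added after the data were seen. Same-numbered libraries did not deviate together on average (mean r -0.02 over 112 pairs, 0.01 over 846 differently numbered pairs), so no pairing by number was seen. This mean cannot exclude a batch shared by some numbers. On sucrose/palmitate the positive control ratio was 3.31 to 3.56 in replicates 1 to 4 and 2.99 to 3.15 in replicates 5 to 8. No libraries were copies (lowest chi-square per degree of freedom 4.69 over 1128 pairs). RefSeq names come from assembly GRCm38.p6. The precision is limited by 7 to 9 animals per diet.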

Additional observations from a re-analysis of the deposited data

Results flagged for a closer look

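A check of 42 groups of values, 6 diets for each of 7 quantities, marked 5 values that stood far from the others of their group. Chance marks about 1 group in 20. Sucrose/oleate replicate 6 had the highest Cd1d1 of its diet, 9144, and without it Cd1d1 stood at -1.19 from chow in place of -1.04 and the Western diet at -0.51 from sucrose/oleate in place of -0.66. Western diet replicate 4 had the lowest ratio of Cd1d1 to Pparg of its diet, 3.62. Chow replicate 4 had the highest Pparg, 1826, and the highest Cfd, 222161, of the chow libraries. Starch/palmitate replicate 3, a library high in epithelial markers, had the highest B2m of its diet, 127798.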

How the results depend on the processing

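The 6 tested pairs kept their direction under all alternatives. Scaling to the positive controls gave -0.83 for the Western diet against sucrose/palmitate (adjusted p = 0.0654) and -0.78 against starch/palmitate (0.0688), and an adjusted p of 0.0823 for the F test, so none passed. The Western diet against starch/palmitate also missed at -0.79 with only the groups compared (0.128) and at -0.77 with the ratio of the positive controls as covariate (0.219). Against sucrose/oleate the Western diet passed by the exact permutation test at -0.66 (p = 0.00848) and as a ratio to Pparg at -0.61 (exact permutation p = 0.00122). With the ratio to Pparg the described distances shrank to -0.21, -0.29, -0.34, -0.97 and -0.94 from chow (sucrose/palmitate, starch/palmitate, sucrose/oleate, starch/oleate, Western diet). For starch/oleate they shrank to -0.76, -0.68, -0.63 and -0.027 against sucrose/palmitate, starch/palmitate, sucrose/oleate and the Western diet. The cause was not tested.

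Leaving out each library gave -1.07 to -0.86 for the Western diet against sucrose/palmitate, -0.90 to -0.70 against starch/palmitate and -0.76 to -0.51 against sucrose/oleate (adjusted p 0.0434 to 0.198). The last passed without sucrose/oleate replicate 2 (0.0459) or Western diet replicates 1 (0.048) or 5 (0.0434). The remaining pairs ran from -0.46 to -0.20, -0.27 to -0.07 and -0.28 to -0.04 (order of the report), and the F test's adjusted p from 0.00608 to 0.0378. With the replicate number as a block, the Western diet stood at -0.93, -0.75 and -0.56 from the other 3 diets (adjusted p = 0.00783, 0.0361 and 0.225), and no Cd1d1 call changed.

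Of 769 values of named genes, 52 lost their call, 18 gained one and 11 changed sign: B2m in starch/palmitate to -0.13 (TMM), -0.15 (DESeq2), -0.11 (covariate) and -0.13 (without epithelial libraries), B2m in sucrose/oleate to 0.085 and Cd36 to 0.043 (positive controls), Cd34 in starch/oleate to 0.14 (positive controls), and Cd74 to -0.23 (TMM), -0.30 (DESeq2) and -0.081 (covariate) in starch/oleate and -0.14 (covariate) in sucrose/oleate. The r of Cd1d1 with Emr1 on the Western diet became -0.087 with TMM. Genes below chow numbered 1 to 32, 1 to 65, 10 to 91, 35 to 135 and 17 to 67 (main 11, 23, 38, 59 and 39), and genes above 4 to 101, 1 to 161, 21 to 177, 155 to 257 and 97 to 188 (main 73, 101, 142, 237 and 161), in the order above. TMM gave 39 higher and 22 lower, 73 and 54, 110 and 68, 168 and 114, and 116 and 55. Scaling sets how many genes fall, and 7 to 9 animals per diet limit the intervals.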
